A study of Homo sapiens with 17 samples.

Results

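Collagen genes were taken here as the 42 of 57820 genes whose symbol is COL, a number, the letter A and a number, after COL7A1 and COL17A1, which serve hemidesmosome anchorage, were left out of 44 such symbols. Polyadenylated RNA was sequenced in 17 libraries, 13 from KYSE140, an oesophageal squamous carcinoma line with high SOX2, and 4 from SKMES1, a lung squamous carcinoma line with low SOX2. The comparisons ask what happens when SOX2, or the enhancer e1 that lies beyond its 3′ end, is turned down or up. In KYSE140 stably expressing a CRISPRi repressor built on inactive Cas9, 2 libraries carried the control guides sg-NC#1 and sg-NC#2 and 2 carried the e1 guides sg-e1#1 and sg-e1#2. In KYSE140 edited with active Cas9, 2 libraries carried guides to the safe sites AAVS1 and Chr2.2 and 3 carried sg-SOX2#2, sg-SOX2#3 and sg-SOX2#4. KYSE140 was also exposed for 6 h to DMSO (2 libraries, A and B) or to 0.5 µM ARV-771 (2 libraries, A and B), a small molecule that directs proteins to degradation. SKMES1 expressing dCas9-VP64 with MS2- and PP7-recruited activators carried control guides sg-NC#1 and sg-NC#2 (2 libraries) or e1 guides sg-e1#1 and sg-e1#3 (2 libraries). The CRISPRi, Cas9-edited and CRISPRa cultures were drug-selected pools infected with lentivirus, controls included, so that not every cell need carry the same change.

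Collagens are secreted proteins whose chains wind into a helix of repeated glycine triplets. Fibrillar collagens (types I, II, III, V, XI, XXIV and XXVII) form fibres, type IV forms the sheet of basement membranes, type VI forms beaded filaments, and FACIT collagens sit on fibre surfaces. The multiplexins, types XV and XVIII, join basement membranes to the matrix below, and type XVIII releases endostatin. Squamous epithelium rests on a type IV basement membrane and itself makes part of it, whereas most fibrillar collagen in tissue comes from fibroblasts. Chains of a type are made together: COL4A1 with COL4A2, COL4A5 with COL4A6, COL6A1 with COL6A2 and COL6A3, and COL1A1 with COL1A2.

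Promoter sequence is shown for the type IV pairs, which moved together, and for the genes with the greatest fall and rise in KYSE140. COL4A1 (minus strand) and COL4A2 (plus strand) start head to head with 126 bases between their RefSeq starts on GRCh38.p14, and COL4A6 and COL4A5 do so with 379 bases between them. The sequence between the COL4A1 and COL4A2 starts (chr13:110307158-110307283, plus strand) and the 250 bases before the starts of COL4A5 (chrX:108439588-108439837, plus strand), COL15A1 (chr9:98943657-98943906, plus strand) and COL5A3 (chr19:10010505-10010754, minus strand) read as follows, with capitals marking any of 5 motifs on either strand, none of which contains another: TATAAA (the TATA box), CCAAT (the CCAAT box), GGGCGG (the GC box), CATTGT (the SOX core) and TGANTCA (the AP-1 site).
COL4A1-COL4A2: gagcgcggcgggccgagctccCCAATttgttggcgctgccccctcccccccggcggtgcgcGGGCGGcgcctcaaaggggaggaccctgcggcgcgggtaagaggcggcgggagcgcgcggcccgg
COL4A5: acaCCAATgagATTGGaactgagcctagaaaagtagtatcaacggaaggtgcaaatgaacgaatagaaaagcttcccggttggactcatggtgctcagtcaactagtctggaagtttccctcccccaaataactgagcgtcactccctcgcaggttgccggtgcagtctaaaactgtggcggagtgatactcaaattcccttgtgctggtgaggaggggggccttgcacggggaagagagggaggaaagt
COL15A1: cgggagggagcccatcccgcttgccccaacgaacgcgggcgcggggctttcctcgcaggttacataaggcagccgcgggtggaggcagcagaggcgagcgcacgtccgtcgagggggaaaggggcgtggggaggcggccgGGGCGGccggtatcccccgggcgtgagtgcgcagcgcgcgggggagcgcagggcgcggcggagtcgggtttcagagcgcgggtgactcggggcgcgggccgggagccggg
COL5A3: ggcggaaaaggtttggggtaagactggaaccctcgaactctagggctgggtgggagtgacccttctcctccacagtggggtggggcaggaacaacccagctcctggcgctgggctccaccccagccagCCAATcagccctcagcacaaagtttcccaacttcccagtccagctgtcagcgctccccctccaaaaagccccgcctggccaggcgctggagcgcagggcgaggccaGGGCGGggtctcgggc

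The COL4A1-COL4A2 interval held 1 CCAAT box and 1 GC box at 80.2% G and C, the COL4A5 stretch held the CCAAT box in both orientations and no GC box, the COL15A1 stretch held 1 GC box, and COL5A3 held 1 of each. None of the 4 stretches held a TATA box, SOX core or AP-1 site. Among 35116 RefSeq promoters, 32% held the CCAAT box, 42.6% the GC box, 10.7% the TATA box, 9.29% the SOX core and 6.57% the AP-1 site in the 250 bases before the start, and in a window of 126 bases 21.1% held the CCAAT box and 34.6% the GC box. RefSeq promoters matched 30 of the 42 collagen genes by symbol, with 42 windows in all, of which 1 held the SOX core, 23 the GC box and 11 the CCAAT box. COL14A1, COL1A1, COL1A2, COL20A1, COL22A1, COL2A1, COL3A1, COL5A2, COL6A1, COL6A5, COL8A1 and COL9A3 had no entry in the promoter table.

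The libraries held between 7260730 and 15781463 estimated counts. SOX2 itself fell from 379 and 365 to 120 and 128 TPM (a share of transcripts, corrected for length) under e1 repression, from 397 and 428 to 103, 125 and 221 TPM in the knockout libraries, and from 236 and 223 to 9.80 and 10.5 TPM with ARV-771, and it rose from 1.68 and 1.53 to 224 and 316 TPM under e1 activation. An edited SOX2 transcript can still be counted. Squamous markers (KRT5, KRT14, KRT6A, TP63, DSG3, DSC3, CDH1, EPCAM) summed to between 5805 and 26577 TPM in KYSE140 groups. In SKMES1 groups they summed to between 34.55 and 172 TPM, and DSG3 stood at 3 counts or fewer in the control libraries. The 172 TPM was mostly KRT14, at 118 TPM with SKMES1 control guide 2 and 0.31 TPM with control guide 1. With e1 guides in SKMES1 KRT14 was at 0 and 0.30 TPM. Fibroblast markers (8 genes) summed to between 10.96 and 41.3 TPM in KYSE140, with PDGFRB, LUM, FAP and PRRX1 at 3 counts or fewer in every group. In SKMES1 they summed to between 80.6 and 96.3 TPM, with DCN and LUM at 3 counts or fewer. Other fibroblast markers were expressed in SKMES1: THY1 at 47.7 to 59.6 TPM, PRRX1 at 15.7 to 20.2 TPM, TWIST2 at 10.6 to 13.4 TPM and PDGFRB at 1.37 to 2.15 TPM. THY1 (7.86 to 34.5 TPM) and TWIST2 (2.02 to 6.73 TPM) were expressed in KYSE140 as well. The SKMES1 control libraries differed more than any other pair of replicates (chi-square of counts per degree of freedom 28.8, against 2.19 to 13.4 in the others). Groups hold 2 or 3 libraries of separate guides or cultures, so p-values measure only the spread between these libraries, and in bulk RNA fewer cells of a kind and less RNA per cell cannot be told apart.

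Of the 42 collagen genes, 15 exceeded 3 counts in every library, 18 did so in some libraries and 9 in none. The silent 9 were COL23A1, COL20A1, COL9A1, COL10A1, COL1A2, COL3A1, COL6A5, COL25A1 and COL6A6. COL1A2 and COL3A1, chains of the main fibrillar collagens of connective tissue, did not exceed 2 and 3 counts, while COL1A1, the partner of COL1A2 in type I collagen, held between 191 and 1289 counts. KYSE140 made mostly type IV: COL4A1 and COL4A2 together supplied between 71.55% and 75% of summed collagen TPM in the 10 KYSE140 libraries without SOX2 guides and between 53.8% and 60.6% in the 3 with them. SKMES1 made mostly type VI, with COL6A1 and COL6A2 supplying between 56.4% and 72.2% of summed collagen TPM and type IV between 12.1% and 17.7%. The summed level lay between 407 and 1154 TPM in KYSE140 and between 1084 and 1455 TPM in SKMES1.

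**Figure D1:**
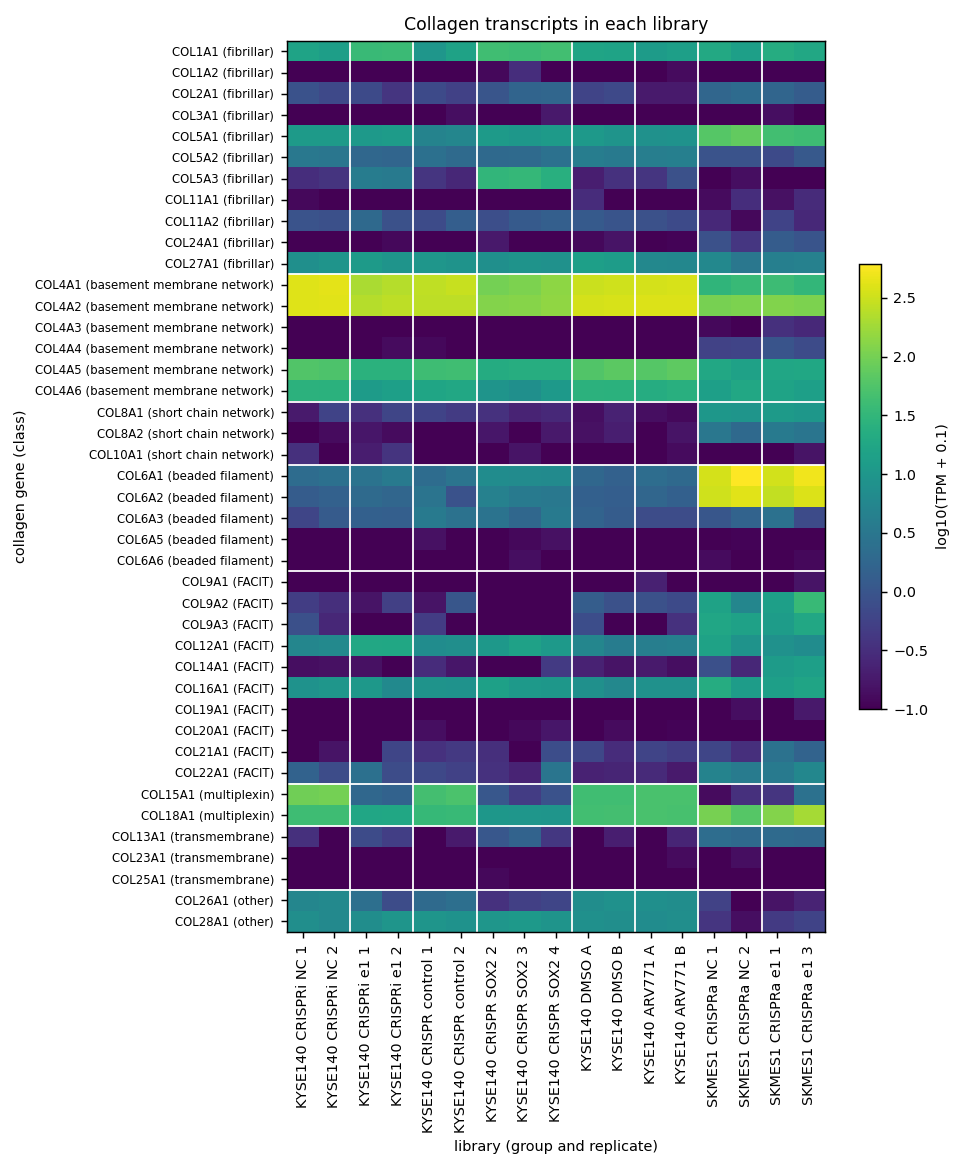
Each row is a collagen gene with its class, each column a library, and colour gives log10(TPM + 0.1); white lines separate groups and classes. COL4A1 and COL4A2 are brightest in KYSE140 and COL6A1 and COL6A2 in SKMES1, and COL1A2 and COL3A1 are dark throughout.

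**Figure D2:**
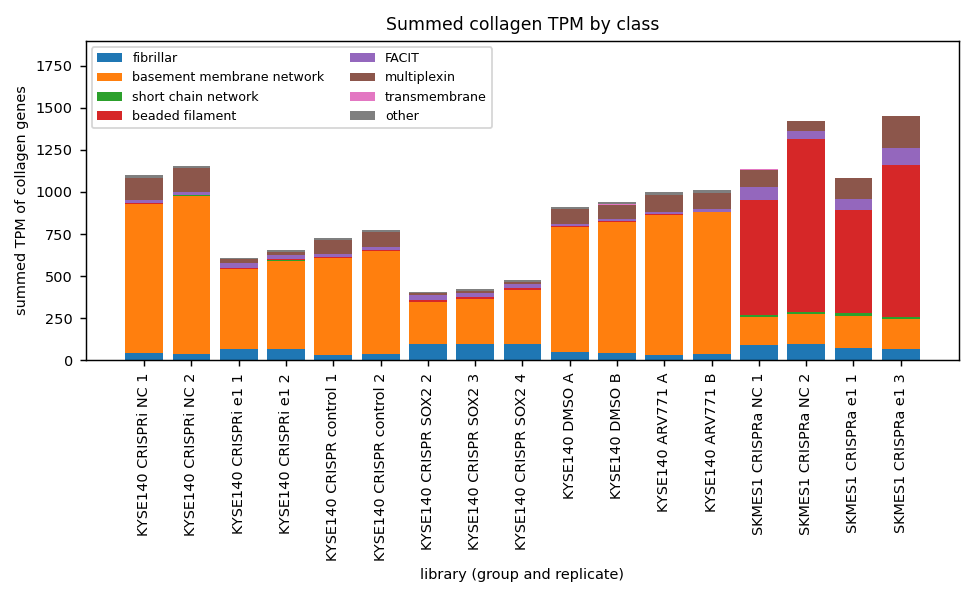
Bars give the summed TPM of collagen genes in each library, divided by class. The basement membrane class went from 891 and 940 TPM in the CRISPRi controls to 474 and 526 TPM with e1 guides, and the beaded filament class (red) appears at height only in SKMES1, at between 614 and 1031 TPM.

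Repression of e1 in KYSE140 lowered the basement membrane collagens and both multiplexins and raised 4 fibrillar chains and COL12A1. Of 20 collagen genes tested, 13 were called (edgeR quasi-likelihood test, adjusted by Benjamini-Hochberg over all genes; a call needs an adjusted p below 0.05 with more than a 1.5-fold change), 5 risen and 8 fallen. Of all 13792 genes tested, 20% were called, 9.3% risen and 10.7% fallen. The median log2 fold change was -0.01 over the collagen genes tested. By class, 4 of 4 tested basement membrane genes and 2 of 2 multiplexins fell, 4 of 6 tested fibrillar genes rose and 1 fell, 1 of 3 FACIT genes rose, and 0 of 3 type VI genes was called.

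COL15A1 (ENSG00000204291, chr9:101705461-101833074 on GRCh37, plus strand), the type XV multiplexin, showed the greatest fall. Its level was 92.2 and 99.7 TPM with control guides and 1.73 and 1.48 TPM with e1 guides, with no overlap between the groups. The change was 57.1-fold (log2 fold change -5.84, SE 0.10, adjusted p 1.3e-15 by edgeR). COL18A1, the type XVIII multiplexin, had 41.6 and 41.5 TPM in controls against 17.5 and 18.2 TPM (log2 fold change -1.23, SE 0.07, adjusted p 5.7e-10 by edgeR). Both multiplexins fell. COL15A1 TPM was 2.22 and 2.40 times COL18A1 TPM in controls and 0.0988 and 0.0815 times it with e1 guides. Without a stated strand setting, COL18A1 counts may include reads of the opposite-strand genes that overlap it, COL18A1-AS1, COL18A1-AS2 and SLC19A1.

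All 4 type IV genes tested fell. COL4A1 (chr13:110801310-110959504 on GRCh37, minus strand) held 397 and 436 TPM in controls and 203 and 231 TPM with e1 guides (log2 fold change -0.92, SE 0.06), and COL4A2 (chr13:110958159-111165556, plus strand) held 408 and 424 against 232 and 255 TPM (-0.75, SE 0.05). Their gene models overlap at their starts on opposite strands. COL4A5 held 58.6 and 53.6 against 26.2 and 26.1 TPM (-1.17, SE 0.06), and COL4A6, its head-to-head neighbour shown above, held 27.2 and 26.4 against 12.1 and 13.5 TPM (-1.13, SE 0.07). No e1 library overlapped a control library for any of these 4 genes, whose adjusted p was at most 4.3e-09 (edgeR). COL26A1, a little-studied secreted collagen, went from 121 and 118 counts to 19 and 13 counts (-2.63, SE 0.27).

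COL5A2, a chain of the fibre-regulating type V collagen, fell in counts but less in TPM. It held 170 and 160 counts in controls and 29 and 37 counts with e1 guides (log2 fold change -2.06, SE 0.20, adjusted p 5.0e-07 by edgeR). In TPM it was 3.18 and 2.93 against 1.76 and 1.63, and the mean transcript length assigned to it was 6949 bases in both controls and 2759 and 3448 bases in the e1 libraries. By limma on log2(TPM + 1) the change was -0.59 with an adjusted p of 0.145. The part of this difference in assigned length in the result was not tested.

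Among the genes that rose, COL5A3, a further type V chain (chr19:10070237-10121180 on GRCh37, minus strand), held 0.21 and 0.27 TPM in controls and 3.83 and 3.55 TPM with e1 guides, from 10 and 13 to 148 and 149 counts. That is a 15.4-fold rise (log2 fold change 3.94, SE 0.25, adjusted p 4.0e-09 by edgeR). COL1A1 stood at 15.9 and 13.5 TPM in controls and 37.3 and 38.3 TPM with e1 guides (1.29, SE 0.09), without any rise of COL1A2 above 2 counts. COL12A1, a FACIT collagen that coats type I fibres, stood at 5.42 and 5.90 against 18.5 and 18.1 TPM (1.59, SE 0.09). COL27A1 (0.59, SE 0.10) and COL11A2 (1.06, SE 0.39), both fibrillar chains, passed less firmly: leaving out control guide 1 or e1 guide 1 ended both calls (0.56 and 0.48 for COL27A1), and leaving out control guide 2 also ended that of COL11A2, whose TPM overlapped between the groups (0.82 and 0.74 against 1.85 and 0.76). COL5A1 held 11.35 and 11.6 TPM in controls and 11.05 and 12.1 TPM with e1 guides, which overlap.

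Knockout of SOX2 in KYSE140 lowered the basement membrane and multiplexin genes and raised fibrillar and type VI chains. Of 22 collagen genes tested, 16 were called (edgeR), 9 risen and 7 fallen. Of all 13978 genes tested, 29.7% were called, 16.3% risen and 13.5% fallen. The median log2 fold change was 0.37 over the collagen genes tested. Scaled by library size alone, the median over genes averaging 50 counts or more moved to -0.21 and that over the collagen genes to 0.17, with 8 risen and 7 fallen, and the share of risen among all calls moved from 54.7% to 36.2%. By class, 4 of 4 basement membrane genes and 2 of 2 multiplexins fell, 4 of 7 fibrillar genes, 2 of 3 type VI genes and 1 of 3 FACIT genes rose, and the remaining calls were COL13A1 and COL28A1, risen, and COL26A1, fallen.

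COL15A1 held 45.5 and 51.4 TPM with control guides and 0.98, 0.37 and 0.79 TPM with SOX2 guides, a 52.4-fold fall (log2 fold change -5.71, SE 0.17, adjusted p 2.7e-10 by edgeR). COL18A1 held 34.7 and 35.5 against 10.2, 9.55 and 9.46 TPM (-1.76, SE 0.08). Neither gene overlapped between the groups. COL4A1 held 266 and 293 TPM in controls and 98.6, 110 and 141 TPM with SOX2 guides 2, 3 and 4 (-1.07, SE 0.10), and COL4A2 held 255 and 263 against 120, 128 and 147 TPM (-0.79, SE 0.07). COL4A5 went from 40.4 and 42.4 to 21.3, 22.9 and 23.2 TPM (-0.76, SE 0.08) and COL4A6 from 16.6 and 18.7 to 9.05, 7.57 and 11 TPM (-0.75, SE 0.09). For each of these 4 type IV genes the library of guide 4, which kept the most SOX2 transcript (221 TPM), had the highest level of the 3 knockout libraries. For COL4A5 guides 3 and 4 were close, at 22.9 and 23.2 TPM. The share of all genes highest in guide 4 was not computed, so this order has no baseline. The multiplexins did not follow that order, with COL18A1 lowest in guide 4 and COL15A1 highest in guide 2. The guide 4 library also differed more from guides 2 and 3 (chi-square of counts per degree of freedom 13.4 and 6.78) than those did from each other (2.87). COL26A1 fell from 36 and 29 counts to 5, 6 and 10 counts (-2.28, SE 0.44).

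The rise of COL5A3 was the largest of any collagen gene in the knockout: 0.28 and 0.16 TPM in controls and 31.2, 33.3 and 24.5 TPM with SOX2 guides, or 11 and 5 counts against 1823, 1021 and 1001 (147-fold, log2 fold change 7.20, SE 0.26, adjusted p 1.5e-09 by edgeR). COL1A1 rose from 9.81 and 15.3 to 42.1, 39.1 and 43.9 TPM (2.17, SE 0.11). COL5A1, the constant chain of type V, rose from 4.82 and 5.47 to 11.7, 10.2 and 11.7 TPM (1.34, SE 0.09). COL6A1 rose from 2.10 and 2.80 to 6.82, 6.58 and 6.45 TPM (2.01, SE 0.21) and COL6A2 from 2.75 and 0.79 to 4.53, 3.44 and 3.24 TPM (2.11, SE 0.30), while their partner COL6A3 stood at 3.42 and 2.59 against 2.65, 1.76 and 3.48 TPM (0.01, SE 0.23), with reads shared with other genes in every library. COL16A1, a FACIT collagen, had TPM of 8.62 and 8.59 against 14.3, 11.2 and 9.99 (1.04 in counts, SE 0.15). COL2A1 was the remaining fibrillar gene called (1.96, SE 0.55), on 7 and 2 counts in controls against 22, 12 and 23. Without Cas9 control 2 its change was 1.48. For COL6A2, COL16A1, COL2A1 and COL28A1 the call was lost by limma on log2(TPM + 1).

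Of the other genes called, COL13A1, a transmembrane collagen, had 0 and 1 counts in controls and 15, 8 and 6 with SOX2 guides, a ratio per total count of 15.6 (95% exact interval 2.58 to 636, counting error only). COL28A1 rose by 0.73 on the log2 scale (SE 0.16), with overlapping TPM of 9.23 and 8.40 against 9.60, 10.7 and 9.07 and with shared reads in 15 of 17 libraries. COL12A1 (0.49, SE 0.10) and COL27A1 (0.43, SE 0.14) passed the p threshold but not the fold threshold. Of the leukocyte markers, CD68, which lysosomes of other cells also hold, was at 3.93 and 3.24 TPM in controls and 61.3, 70.2 and 53.8 TPM in the knockout, and at 1.08 and 0.84 against 24.4 and 25.8 TPM in the e1 repression experiment. CD3E stood at 3 counts or fewer in all these groups and PTPRC did so in both perturbed groups. Squamous markers summed to at most 7298 TPM in these controls and at least 22840 TPM in the knockout. KRT5, KRT14 and KRT6A made up the higher sum, while TP63 was at 167 and 182 TPM in controls and 56.9, 64.3 and 78.45 TPM in the knockout, and EPCAM at 222 and 235 against 107, 117 and 126 TPM. The part of these markers in the collagen result was not tested.

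**Figure D3:**
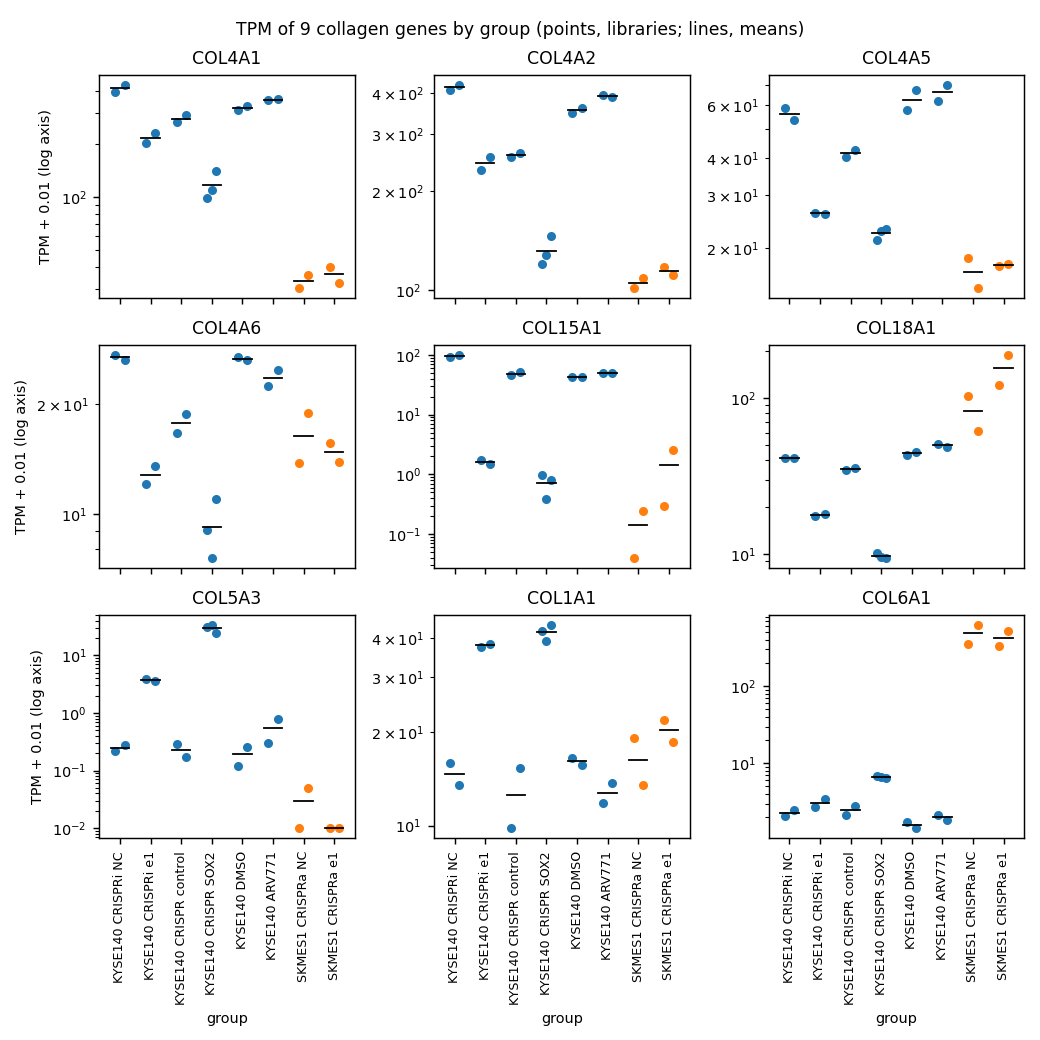
TPM + 0.01 on a log axis for 9 collagen genes in the 8 groups; points are libraries, lines are group means, KYSE140 is blue and SKMES1 orange. COL15A1 drops below 2 TPM in both the e1 repression and SOX2 knockout groups, while COL5A3 climbs to above 24 TPM in the knockout.

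These comparisons share no library. Of the 20 collagen genes tested in both, 9 were called in both and moved the same way, 7 down (COL15A1, COL18A1, COL4A1, COL4A2, COL4A5, COL4A6, COL26A1) and 2 up (COL5A3, COL1A1), which is 69.2% of the 13 e1 repression calls and 64.3% of the 14 knockout calls among them. Over the 13424 genes of any kind tested in both, 1694 were called in both, or 63.5% of the e1 repression calls and 44.4% of the knockout calls, and 96.2% of those moved the same way. The difference between both effects was tested directly in a fit over the 9 libraries (edgeR, contrast of e1 repression minus SOX2 knockout). Of 22 collagen genes tested, 9 were called, 1 with a higher and 8 with a lower value in e1 repression. Of all 14455 genes tested, 16.6% were called, 8.21% higher and 8.37% lower. Scaled by library size, 2 were higher and 8 lower, while the median over genes with at least 50 counts was 0.18 and the share of higher among all calls was 67.6%.

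COL12A1 was the gene with the higher value in e1 repression (difference of log2 fold changes 1.13, SE 0.14, adjusted p 5.9e-05 by edgeR). The lower ones were all fibrillar, type VI or FACIT: COL5A3 (-3.24, SE 0.65), COL2A1 (-3.22, SE 0.92), COL5A2 (-2.34, SE 0.26), COL6A1 (-2.15, SE 0.32), COL6A2 (-1.78, SE 0.45), COL5A1 (-1.24, SE 0.12), COL16A1 (-1.08, SE 0.21) and COL1A1 (-0.86, SE 0.15). COL2A1, the cartilage fibre chain, rests on few reads, 7 and 8 counts against 3 and 2 in the e1 experiment and 7 and 2 against 22, 12 and 23 in the knockout, and its call was lost without either CRISPRi control, e1 guide 2 or Cas9 control 2. For COL15A1 (-0.11, SE 0.28), COL4A1 (0.17, SE 0.13) and COL4A2 (0.06, SE 0.09) a difference was not called, and COL18A1 (0.56, SE 0.10), COL4A5 (-0.39, SE 0.10) and COL4A6 (-0.36, SE 0.11) passed the p threshold but not the fold threshold. By limma on log2(TPM + 1), 3 of 20 collagen genes were called in this contrast, against 2018 of all 14134 genes tested. SOX2 transcript fell by 1.57 on the log2 scale in e1 repression and by 1.28 in the knockout.

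**Figure D4:**
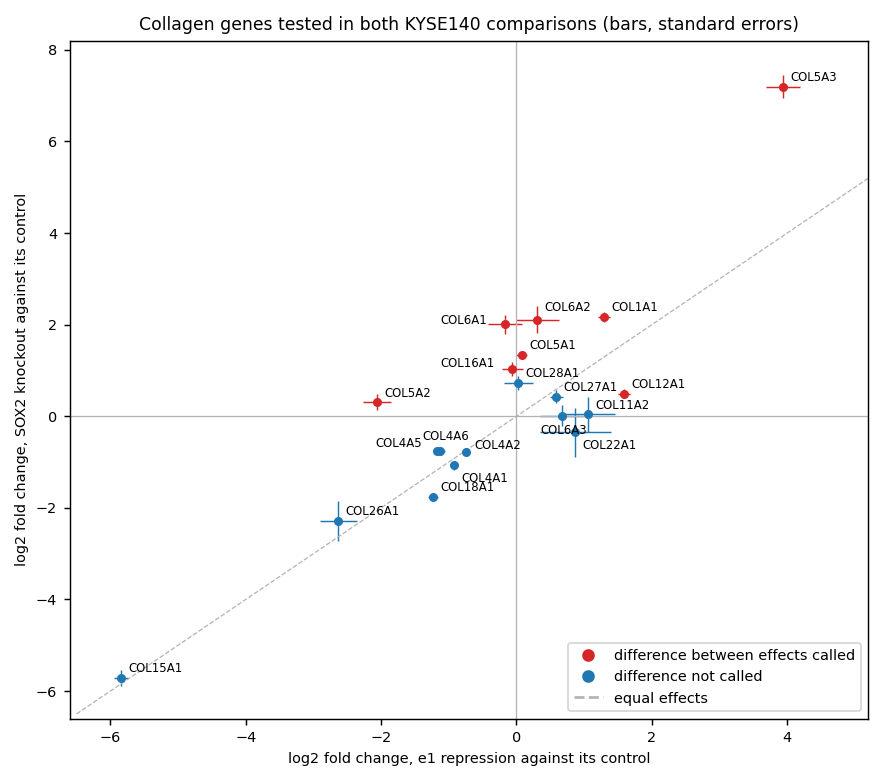
Log2 fold change of the 20 collagen genes tested in both comparisons, e1 repression on the x axis and SOX2 knockout on the y axis, with standard errors; red marks genes whose difference was called. COL15A1 lies on the dashed line of equal effects at -5.84 and -5.71, and COL5A3, at 3.94 and 7.20, lies well above it.

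With ARV-771 for 6 h, the outcome depended on how libraries were scaled. Under TMM scaling, 12 of 20 collagen genes tested were called risen and 0 fallen (edgeR), where 1 gene fell at an unadjusted p under 0.05. Of all 13500 genes tested, 52.9% were called, 21.2% risen and 31.7% fallen. By library size alone, 2 rose (COL5A3 and COL6A1) and 3 fell (COL27A1, COL11A2 and COL6A3), against 2.82% and 45% of all genes. Scaled to mitochondrially encoded transcripts, 0 rose and 5 fell, against 70.5% of all genes fallen. The median over genes with at least 50 counts was 0.01, -0.45 and -1.07 under these scalings, and that over the collagen genes 0.71, 0.25 and -0.37. A scaling shifts all genes alike, so the gap between these medians is the same under each. The share of risen among all calls was 40%, 5.9% and 0.823%.

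COL4A1 held 311 and 329 TPM in DMSO and 355 and 361 TPM with ARV-771, and COL4A2 held 349 and 359 against 394 and 389 TPM. TMM-scaled counts gave log2 fold changes of 0.88 (SE 0.04) and 0.86 (SE 0.04), while scaling to mitochondrially encoded transcripts gave -0.20 and -0.22. COL15A1 held 43.1 and 42.0 TPM in DMSO and 50.3 and 49.5 TPM with ARV-771 (0.96, SE 0.05 with TMM, -0.12 with mitochondrial scaling). COL18A1 held 43.5 and 45.2 against 50.6 and 49.02 TPM. SOX2 was at 9.80 and 10.5 TPM in the same ARV-771 libraries. Agents and durations differ from those of e1 repression and knockout, and no test was made between these comparisons.

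COL27A1 went the other way from most: 13.5 and 12.2 TPM in DMSO and 5.77 and 5.67 TPM with ARV-771. Its log2 fold change was -0.37 (SE 0.09) with TMM, below the fold threshold, and -0.83 by library size and -1.45 by mitochondrial scaling, both called by edgeR. COL6A1 (42 and 37 against 75 and 88 counts, 1.44, SE 0.24) and COL5A3 (6 and 13 against 17 and 31 counts, 1.70, SE 0.47) rose most under TMM, on low counts. The call of COL5A3 was lost without DMSO library A or ARV-771 library B, that of COL26A1 without DMSO library A (0.58) and that of COL6A2 without ARV-771 library A (0.71). The others called with TMM were COL4A5 (0.84, SE 0.05), COL4A6 (0.66, SE 0.06), COL18A1 (0.86, SE 0.05), COL5A2 (0.76, SE 0.12), COL12A1 (0.60, SE 0.10), COL26A1 (0.68, SE 0.13) and COL6A2 (0.88, SE 0.28).

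**Figure D5:**
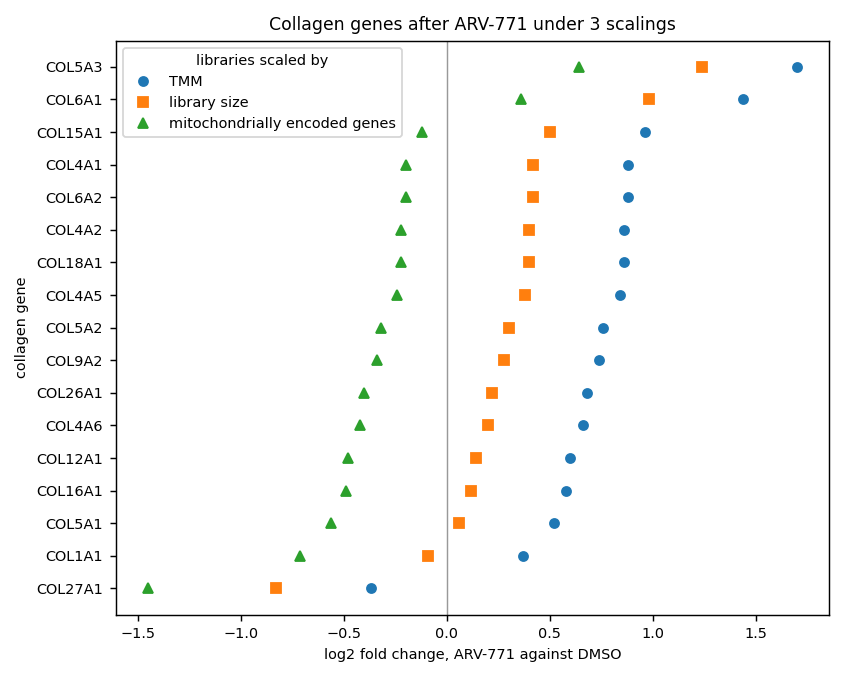
Log2 fold change of 17 collagen genes after ARV-771 against DMSO with libraries scaled by TMM (circles), library size (squares) or mitochondrially encoded genes (triangles). For COL4A1 these are 0.88, 0.42 and -0.20, and for COL27A1 they are -0.37, -0.83 and -1.45.

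Activation of e1 in SKMES1 raised COL14A1 and left no other collagen gene past the threshold. Of 26 collagen genes tested, 1 was called (edgeR), risen, and 0 fallen. Of all 14859 genes tested, 0.188% were called, 0.168% risen and 0.0202% fallen. At an unadjusted p under 0.05, 3 collagen genes were higher and 2 lower, and the share of all genes at that p was not computed. DESeq2 called 1 risen and 1 fallen, against 242 risen and 158 fallen among all 14859 genes tested. COL14A1, a FACIT collagen that binds fibril surfaces, had 10 and 7 counts with control guides and 432 and 841 counts with e1 guides 1 and 3. In TPM it was 0.75 and 0.16 against 11.8 and 13.5, with no overlap (log2 fold change of counts 6.03, SE 0.25, adjusted p 0.00559 by edgeR). Without e1 guide 3 the change was 5.94 with an adjusted p of 0.0626, and without e1 guide 1 it was 6.12 with an adjusted p of 0.015 (edgeR). In KYSE140, COL14A1 did not exceed 8 counts in any library.

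Genes called risen or fallen under e1 repression or SOX2 knockout in KYSE140 had these values in SKMES1. COL15A1 held 1 and 10 counts in controls and 9 and 130 with e1 guides (3.30, SE 1.19, adjusted p 0.315 by edgeR). Most of its reads came from e1 guide 3, and without that library the change was 1.05. COL18A1 held 104 and 62.1 TPM in controls and 121 and 190 TPM with e1 guides (0.86, SE 0.31, adjusted p 0.318 by edgeR), and was called without control guide 1 (1.29). COL4A1 (0.04, SE 0.13), COL4A2 (0.06, SE 0.10), COL4A5 (0.14, SE 0.10) and COL4A6 (-0.15, SE 0.16) had small fold changes, with COL4A2 at 102 and 109 against 117 and 111 TPM. COL5A3 had at most 2 counts in any SKMES1 library, and COL26A1 at most 9. COL5A1 held 61.0 and 74.9 TPM in controls and 43.6 and 41.4 TPM with e1 guides, without overlap (-0.79, SE 0.10, adjusted p 0.0843 by edgeR), and DESeq2 called it. COL12A1 held 15.2 and 8.86 against 8.14 and 6.77 TPM (-0.75, SE 0.23), and COL1A1 held 19.1 and 13.5 against 21.9 and 18.6 TPM (0.12, SE 0.27). COL16A1 (-0.81, SE 0.37), COL6A1 (-0.25, SE 0.31), COL6A2 (-0.21, SE 0.20) and COL2A1 (-0.95, SE 0.55) were not called by edgeR. Nor were COL13A1 (-0.34, SE 0.34), COL27A1 (-0.15, SE 0.26) and COL5A2 (-0.04, SE 0.34). COL11A2 and COL28A1 did not pass the count filter.

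SKMES1 and KYSE140 differed in nearly every collagen gene expressed. In control libraries of both lines, 27 of 28 collagen genes tested were called (edgeR), 16 higher and 11 lower in SKMES1. Of all 15532 genes tested, 57.2% were called, 31.4% higher and 25.8% lower. Line and delivered construct cannot be told apart here, and these controls also serve the comparisons above. The median log2 difference over the collagen genes was 0.97. Over all libraries, perturbed ones included, 12 collagen genes were higher in each SKMES1 library than in any KYSE140 library, 7 were lower and 23 overlapped. The share of all genes separated in this way was not computed, so these counts have no baseline.

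Type VI chains were higher and most type IV chains lower in SKMES1. COL6A1 held 354 and 618 TPM in SKMES1 controls and between 1.43 and 2.80 TPM in the 6 KYSE140 controls (log2 difference 7.94, SE 0.18), and COL6A2 held 330 and 411 TPM against between 0.79 and 2.75 TPM (8.13, SE 0.11). COL6A3, needed for the complete type VI unit, was at 0.94 and 1.52 TPM in SKMES1 controls and between 0.51 and 3.42 TPM in KYSE140 controls, and was the gene not called (-0.43, SE 0.31). COL4A1 was lower in SKMES1, at 30.5 and 36.0 TPM (-3.46, SE 0.09), and COL4A2 less so, at 102 and 109 TPM (-1.80, SE 0.06). COL4A1 TPM was accordingly between 0.292 and 0.341 times COL4A2 TPM in SKMES1 and between 0.819 and 1.11 times it in KYSE140. COL4A5 (-1.93, SE 0.07) and COL15A1 (-8.79, SE 0.23) were lower too.

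Other genes marking SKMES1 were COL5A1 (61.0 and 74.9 TPM against between 4.82 and 11.6 TPM, 2.67, SE 0.06), with COL5A2 at 0.82 and 0.84 TPM (-1.89, SE 0.15), and the short chain collagens of endothelial and corneal basement membranes, COL8A1 (10.02 and 9.27 TPM against at most 0.48 TPM) and COL8A2 (3.13 and 1.88 TPM against at most 0.11 TPM). COL8A1 had shared reads in every library. The cartilage FACIT chains COL9A2 (15.1 and 5.44 TPM) and COL9A3 (17.6 and 14.5 TPM) were also higher than in any KYSE140 library (at most 1.23 and 0.73 TPM), as was COL22A1 (4.92 and 3.66 TPM, 2.74, SE 0.28), while COL9A1 did not exceed 2 counts. COL9A3 held 96 and 95 counts in SKMES1 controls, at an assigned length of 984 and 1001 bases. Without a stated strand setting, its counts may include reads of TCFL5, which overlaps it on the opposite strand. COL27A1 (-1.66, SE 0.19) and COL28A1 (0.28 and 0.04 TPM against at least 5.95 TPM) were lower in SKMES1. The remaining 12 called genes had log2 differences from 0.80 to 7 (8 higher) and from -4.44 to -0.65 (4 lower). Of these, COL1A1, COL4A6 and COL18A1 lost the call without SKMES1 control guide 1. COL4A4 held 27 and 36 counts in SKMES1 controls and 1 count over the 6 KYSE140 controls.

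The genes that build, cut, cross-link, bind or sense collagen were followed in 4 lists of 55 genes in all, each present in the files. Under e1 repression 7 rose and 5 fell of 37 tested, where 9.3% and 10.7% of all genes did. The genes named from here on are those with the smallest p in each direction, not the greatest changes. LEPREL1, a prolyl 3-hydroxylase that modifies type IV and V chains, went from 1.06 and 2.86 to 21.9 and 17.8 TPM (log2 fold change 4.32, SE 0.16). BMP1, which cuts procollagen ends, went from 18.6 and 18.7 to 40.8 and 40.5 TPM (1.25, SE 0.08), and THBS1, a matrix glycoprotein, from 207 and 237 to 584 and 585 TPM (1.36, SE 0.05). The falls with the smallest p were COLGALT2, a collagen galactosyltransferase (-2.99, SE 0.16), MRC2, a collagen uptake receptor (-1.21, SE 0.08) and LOX, a cross-linking oxidase (-1.57, SE 0.14). In the knockout 8 rose and 10 fell of 40 tested, against 16.3% and 13.5% of all genes. LEPREL1 (1.37 and 1.62 against 29.6, 35.8 and 29.8 TPM, 4.84, SE 0.18), BMP1 (1.99, SE 0.09) and P4HA2, a prolyl 4-hydroxylase subunit (0.93, SE 0.09), were the rises with the smallest p. COLGALT2 (8.14 and 8.21 against 0.37, 0.31 and 0.58 TPM, -4.03, SE 0.21), TGFBI, a collagen-binding matrix protein (-1.05, SE 0.09), and CRTAP, a partner of prolyl 3-hydroxylase (-0.83, SE 0.09), were the falls.

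The direct test of e1 repression minus knockout called 7 of 40 related genes higher and 3 lower (8.21% and 8.37% of all genes), with the smallest p for THBS1 (1.31, SE 0.09), TGFBI (1.43, SE 0.12) and LOXL3 (1.63, SE 0.30) and for BMP1 (-0.72, SE 0.12), P4HA2 (-0.77, SE 0.15) and LOX (-1.31, SE 0.30). With ARV-771 and TMM scaling, 21 of 34 tested rose and 1 fell (21.2% and 31.7% of all genes), TGFBI (0.94, SE 0.04), P4HB (0.93, SE 0.04) and ITGB1 (0.96, SE 0.04) with the smallest p and THBS1 (-0.78, SE 0.05) falling from 206 and 187 to 70.1 and 64.1 TPM. By library size 0 rose and 5 fell, where 2.82% and 45% of all genes did. By mitochondrial scaling 0 rose and 10 fell, where 70.5% of all genes fell. Under e1 activation 0 of 44 rose and 1 fell (0.168% and 0.0202% of all genes), LOXL2 (-1.22, SE 0.11). Between the lines 27 of 45 were higher in SKMES1 and 11 lower (31.4% and 25.8% of all genes), among them the basement membrane linker NID1 (5.37, SE 0.08), LOXL2 (8.26, SE 0.14) and fibronectin, FN1 (10.20, SE 0.20), on the higher side and DDR1, a collagen receptor kinase (-1.60, SE 0.07), THBS1 (-1.91, SE 0.09) and COLGALT2 (-2.74, SE 0.14) on the lower.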

How the data were processed

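The authors aligned reads with Bowtie2 and quantified genes with RSEM on hg19, per the labels, and each deposited file gives an expected count and TPM per gene, with a mean transcript length. Versions and strand setting are not given in the sources used here. Expected counts were rounded, filtered with filterByExpr (minimum count 10) and scaled by TMM, and groups were compared by the edgeR quasi-likelihood test (edgeR 4.0.16, R 4.3.3) on all genes with Benjamini-Hochberg adjustment, with calls at an adjusted p below 0.05 and more than a 1.5-fold change. Only the libraries of a comparison entered its fit. Alternatives used DESeq2 1.42.0, limma 3.58.1 on log2 TPM (pseudocount 1 or 0.1, genes averaging 1 TPM or more), other scalings and filters, and each library left out. Scripts were tested on simulated data. Fold changes are of counts unless TPM is named, and TPM uses a length that varies between libraries. The collagen genes and gene lists were chosen with earlier results of these data known. Named are members called (the 15 with the smallest p where more), those with a mean of at least 10 TPM in a group, and per comparison the 3 related genes with the smallest p in each direction. Total counts of 7260730 to 15781463 set the precision. Gene coordinates are from GENCODE 44 lifted to GRCh37. Results for 1 marker gene are not reported here.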

Additional observations from a re-analysis of the deposited data

Results flagged for a closer look

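Repression of e1 and knockout of SOX2 differed by the direct edgeR test of one effect minus the other for 9 collagen genes, on the log2 scale. The difference was -1.24 for COL5A1, -2.34 for COL5A2, 1.13 for COL12A1, -2.15 for COL6A1, -0.86 for COL1A1, -1.08 for COL16A1, -3.24 for COL5A3, -1.78 for COL6A2 and -3.22 for COL2A1. COL5A3 and COL1A1 rose in both comparisons and COL5A2 was called fallen in e1 repression (29 and 37 counts against 170 and 160). COL5A1, COL6A1, COL6A2 and COL16A1 were called risen in the knockout and not called in e1 repression. By limma on TPM, COL5A2, COL6A1, COL6A2, COL16A1 and COL1A1 were not called in this contrast. No group had 4 or more libraries, so a search for libraries far from their group was not made.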

How the results depend on the processing

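The number of collagen genes called kept within 1.5 times for e1 repression, SOX2 knockout and the cell lines. Without SOX2 guide 2, 3 or 4 the knockout gave 15 collagen calls, against 3892, 3968 and 4261 calls over all genes. Leaving out a library of any other group left a single library in it, and those counts are not compared here. For ARV-771 the count of 12 became 5 by library size, 5 by mitochondrial scaling, 2 at a fold over 2, and 1 and 1 by limma. By limma 0 rose and 1 fell (COL27A1) of 16 tested, against 12 risen and 0 fallen. Calls over all genes went from 7136 to 6457, 9603, 3809, 6446 and 6529 in the same order. By limma 122 and 113 of these rose and 6324 and 6416 fell, of 13176 genes tested. For e1 activation the count of 1 became 7 without a filter, 2 by DESeq2, 0 and 0 by limma and 5 with all 17 libraries in a fit. Over all genes the calls went from 28 to 1116, 400, 9, 8 and 784 in the same order. For e1 repression minus knockout, limma gave 3 and 4, where 2018 and 1950 of all 14134 genes were called. Of the genes called, 7 of 13, 9 of 16, 0 of 12, 0 of 1, 24 of 27 and 3 of 9 were called under every setting, in the order e1 repression, knockout, ARV-771, e1 activation, lines, and e1 repression minus knockout. The causes were not tested.

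With the replicate block, e1 repression gave 14 calls (6 risen, 8 fallen) and ARV-771 gave 12 (12 risen, 0 fallen). Calls over all genes were then 2807 of 13792 tested and 7090 of 13500 tested. Same-numbered libraries share only a number, with deviations correlated at 0.018 and -0.002. No paired analysis was possible for knockout, e1 activation and the lines because the groups share fewer than 2 numbers or the labels give none.

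Among collagen genes called in the comparison concerned or averaging 10 TPM or more in any group, log2 fold changes changed sign as follows; the other tested genes that did so were not called in it. Under mitochondrial scaling of ARV-771 they were -0.48 for COL12A1, -0.12 for COL15A1, -0.49 for COL16A1, -0.22 for COL18A1, -0.71 for COL1A1, -0.40 for COL26A1, -0.20 for COL4A1, -0.22 for COL4A2, -0.24 for COL4A5, -0.42 for COL4A6, -0.56 for COL5A1, -0.32 for COL5A2, -0.20 for COL6A2 and -0.34 for COL9A2, and by library size -0.09 for COL1A1. By limma with pseudocounts 1 and 0.1 they were -0.08 and -0.10 for COL12A1, -0.31 and -0.33 for COL1A1, -0.04 and -0.04 for COL26A1, -0.17 and -0.18 for COL4A6 and -0.22 and -0.24 for COL5A1 with ARV-771, 0.31 and 0.41 for COL6A1 in e1 repression, -0.15 and -0.17 for COL27A1 in knockout, and 0.03 and 0.04 for COL27A1 and -0.07 and -0.08 for COL9A3 in e1 activation. For COL15A1 in e1 repression minus knockout, library size gave 0.04 and limma 0.16. Leaving out a library gave -0.22 to 0.12 for COL16A1 and -0.43 to 0.05 for COL6A1 in e1 repression. In e1 activation it gave -0.20 to 0.52 for COL1A1, -0.45 to 0.23 for COL27A1, -0.08 to 0.17 for COL4A1, -0.34 to 0.07 for COL4A6, -0.58 to 0.20 for COL6A1, -0.47 to 0.02 for COL6A2 and -0.19 to 0.31 for COL9A3. In e1 repression minus knockout it gave -0.33 to 0.28 for COL15A1, -0.13 to 0.42 for COL27A1 and -0.01 to 0.12 for COL4A2. Genes under about 20 counts, such as COL2A1 and COL13A1, are limited by depth.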

Other observations

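The KYSE140 control cultures differed among themselves in basement membrane and multiplexin genes. COL15A1 was at 95.9 ± 5.26 TPM (SD, n = 2) with CRISPRi control guides, 48.5 ± 4.13 TPM (n = 2) with Cas9 control guides and 42.5 ± 0.757 TPM (n = 2) in DMSO. COL4A1 was at 417 ± 27.5, 279 ± 18.7 and 320 ± 12.4 TPM in the same order, and COL5A1 at between 4.82 and 5.47 TPM with Cas9 control guides and between 9.01 and 11.6 TPM in the other controls. These differences were not tested, and the construct and culture of each control set cannot be told apart.

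Assigned transcript length varied between libraries for some collagen genes. For COL26A1 it was 1475 bases with e1 guide 1 and 3007 bases with e1 guide 2 in KYSE140, where the gene had 19 and 13 counts and 2.32 and 0.66 TPM. For COL14A1 in SKMES1 controls it was 2113 and 5407 bases, at 10 and 7 counts.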
